A study of Mus musculus with 24 samples.

Results

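The genes described here are 10 transcripts of the endoplasmic reticulum (ER) stress response and the integrated stress response, followed through cholestatic mouse liver. They are Hspa5, Herpud1, Dnajb9, Xbp1, Atf4, Ddit3, Asns, Chac1, Trib3 and Fgf21. They were picked by name, and each is represented by its brightest single-symbol probe set (highest mean of the 24 arrays). Of the 10 genes, 9 had such a probe set, 1 each, among 18820 genes measured. The probe set for Ddit3, which encodes the stress factor CHOP, is annotated to a second gene as well, so no value for Ddit3 is given.

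The ER folds secreted and membrane proteins, and hepatocytes, which secrete most plasma proteins, carry a large amount of it. When unfolded proteins accumulate, the sensors IRE1, PERK and ATF6 (Ern1, Eif2ak3 and Atf6) raise folding and degradation capacity: ATF6 and the spliced form of XBP1 act on promoters of chaperone and degradation genes, and PERK phosphorylates the translation factor eIF2α. Other kinases that respond to amino acid shortage, viral RNA or heme shortage phosphorylate the same factor. This shared arm, the integrated stress response, favours translation of ATF4, which drives genes of amino acid synthesis and transport. Retained bile acids are known to stress hepatocytes. JNK1, the kinase deleted in these mice, is also activated downstream of IRE1, among many other inputs.

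Livers of male C57BL/6 mice were profiled in 8 groups of 3 arrays. Control mice carried floxed Jnk1 alleles without a Cre transgene named for them (JNK1f/f); they had either sham surgery, in which the abdomen was opened and closed, or ligation of the common bile duct (BDL). JNK1-/- mice lack the kinase in the whole body, and JNK1Δhepa mice lose it through an albumin promoter Cre, which acts in hepatocytes and leaves the gene in other liver cells. Both mutants were profiled only after ligation, so no mutant sham group enters any comparison. Tissue was taken at 48 h from mice 8 weeks old or at 28 d from mice 12 weeks old, so time after surgery and age cannot be told apart. Values were log2 intensities, on which a difference of 1 is a doubling; a gene rose, fell or passed at an adjusted p under 0.05 in a limma model over all genes. Arrays limit precision by their number, and the median standard error of a difference between groups was 0.129 over all genes. The labels give each array a replicate number and do not say that arrays came from separate animals, so p-values measure the spread between these samples. In whole liver, fewer cells of a type and less RNA per cell cannot be told apart.

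Each array was checked against its label before the results. Mapk8, which encodes JNK1, lay between 5.18 and 6.17 on the 6 JNK1-/- arrays, below all other arrays. JNK1Δhepa arrays held 6.76 to 6.97, except replicate 1 at 28 d, which at 7.67 was level with controls. Controls held 7.37 to 7.67, except the arrays labelled control sham at 48 h, which at 6.67 to 6.93 overlapped JNK1Δhepa. Comparisons of ligated with sham liver at 48 h were therefore repeated with the 28 d sham arrays, and those of JNK1Δhepa liver at 28 d without replicate 1. Calls that changed are given beside the results, except that comparisons of time in sham liver and of ligation by time have no other 48 h sham arrays. Hepatocyte genes such as Alb and Apoa1 were bright on every array, all 7 markers measured lying between 11.7 and 13.4.

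Promoter sequences are shown for the 5 members in which a binding motif of the pathway was found, because they link each gene to an arm of the response. The windows are the 250 bases before the annotated start in RefSeq, build GRCm38.p6, read 5′ to 3′ on the gene's strand, and capitals mark the fixed letters of the motifs. The ER stress response element (CCAAT, 9 free bases, CCACG) and the element ERSE-II (ATTGG, 1 free base, CCACG) are known sites of ATF6 with NF-Y. The core TGATGNAA is that of the C/EBP-ATF response element bound by ATF4. Both strands were searched, all 10 members had a promoter entry, and no matches overlapped. Positions count back from -1, the base before the start.
Hspa5: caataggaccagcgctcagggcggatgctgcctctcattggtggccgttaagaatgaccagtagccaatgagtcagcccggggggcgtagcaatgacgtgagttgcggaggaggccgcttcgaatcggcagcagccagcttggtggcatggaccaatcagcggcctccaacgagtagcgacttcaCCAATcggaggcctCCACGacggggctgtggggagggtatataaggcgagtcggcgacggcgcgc
Herpud1: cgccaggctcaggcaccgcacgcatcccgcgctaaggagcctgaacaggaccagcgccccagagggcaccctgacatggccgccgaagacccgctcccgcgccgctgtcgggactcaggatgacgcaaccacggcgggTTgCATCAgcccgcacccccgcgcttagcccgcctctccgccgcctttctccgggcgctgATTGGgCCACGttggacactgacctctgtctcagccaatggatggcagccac
Asns: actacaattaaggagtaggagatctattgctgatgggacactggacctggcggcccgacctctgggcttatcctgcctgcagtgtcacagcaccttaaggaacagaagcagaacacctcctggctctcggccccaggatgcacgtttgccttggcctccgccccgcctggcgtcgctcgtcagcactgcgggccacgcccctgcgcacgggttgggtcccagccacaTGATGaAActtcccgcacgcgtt
Chac1: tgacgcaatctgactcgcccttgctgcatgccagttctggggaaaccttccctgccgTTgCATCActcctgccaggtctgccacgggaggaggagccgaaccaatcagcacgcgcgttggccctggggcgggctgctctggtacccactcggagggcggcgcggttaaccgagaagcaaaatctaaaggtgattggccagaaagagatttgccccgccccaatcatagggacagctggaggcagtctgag
Fgf21: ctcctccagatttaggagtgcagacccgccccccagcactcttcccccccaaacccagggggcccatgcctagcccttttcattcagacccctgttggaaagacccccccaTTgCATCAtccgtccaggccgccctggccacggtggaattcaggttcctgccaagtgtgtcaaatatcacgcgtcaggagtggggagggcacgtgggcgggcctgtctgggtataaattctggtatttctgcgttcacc

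The window of Hspa5 (chr2:34771840-34772089, plus strand) held the ER stress response element at positions -65 to -47. Herpud1 (chr8:94386179-94386428, plus strand) held ERSE-II at -52 to -42 and the ATF4 core, on the opposite strand, at -112 to -105. In Asns (chr6:7693210-7693459, minus strand) the ATF4 core lay at -23 to -16. In Chac1 (chr2:119350992-119351241, plus strand) it lay at -193 to -186, and in Fgf21 (chr7:45615491-45615740, minus strand) at -139 to -132, both on the opposite strand. The ER stress response element occurred in 37 of 32851 promoters of this length (0.113%), ERSE-II in 10 (0.0304%) and the ATF4 core in 1134 (3.45%). Neither the XBP1 core TGACGTGG (0.563% of promoters) nor the cyclic AMP element TGACGTCA (1.55%) was found in a member's window. A match is a run of letters and not a measured site.

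**Figure D1:**
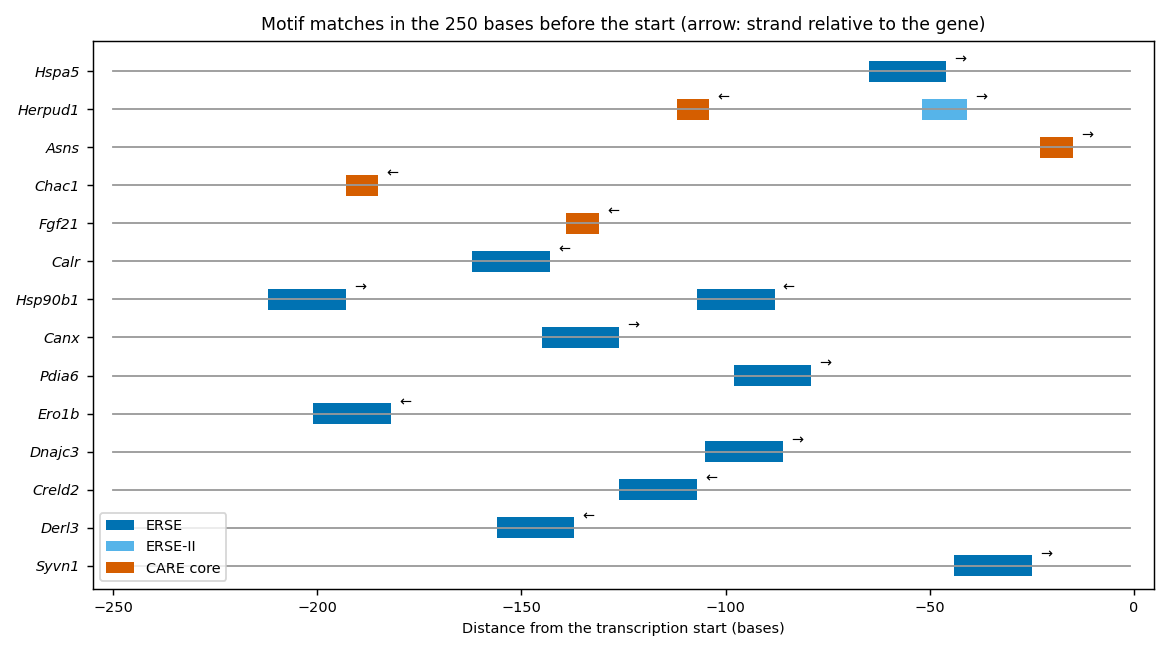
Motif matches in the 250 bases before the start (horizontal axis, distance in bases) of 5 members and 9 other genes, 1 line per gene, with a coloured block per match (ERSE, the ER stress response element; CARE core, the ATF4 core) and an arrow for its strand. The matches of Chac1, Fgf21 and Asns are ATF4 cores, that of Hspa5 is the element also seen in the 9 other genes, and Herpud1 holds 2 kinds.

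Asns, which encodes asparagine synthetase, varied most. Its group means spanned 2.74 on the log2 scale, 6.69-fold and the 99.0th percentile of all genes, against a median span of 0.41 over all genes. Dnajb9, a co-chaperone (ERdj4) induced by XBP1, spanned 1.47, and Fgf21, a secreted metabolic hormone, spanned 1.27. Chac1, which degrades glutathione, spanned 1.03, and Trib3, a pseudokinase that dampens the response, 0.91. Hspa5, which encodes the ER chaperone BiP, spanned 0.88. Xbp1 spanned 0.69, Herpud1, a membrane adaptor of ER-associated degradation, 0.63, and Atf4 0.44, close to the median gene. Atf4 is controlled largely at translation and Xbp1 by splicing, neither of which these intensities measure. With each gene's groups put in order of level, 61 of 63 neighbouring pairs overlapped in their arrays. Neighbours in such an order are the closest groups, so this does not say that groups further apart overlapped.

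**Figure D2:**
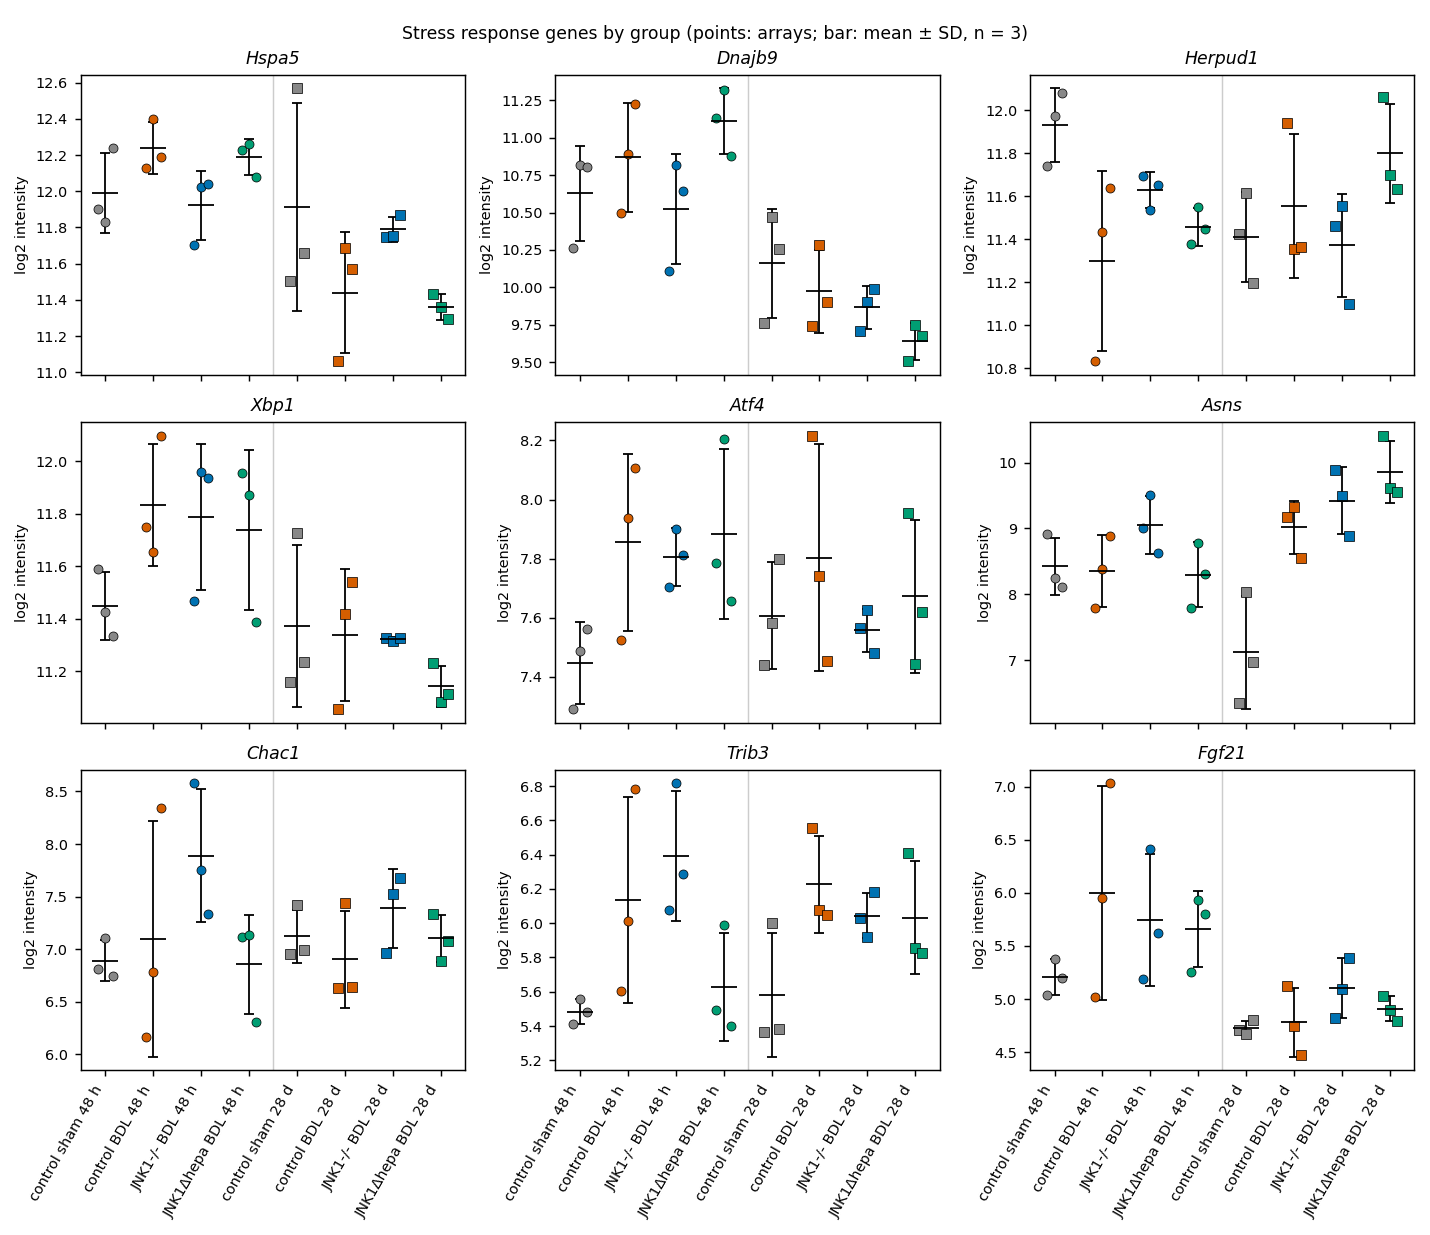
Log2 intensity of the 9 measured members on each of the 24 arrays (vertical axis) in the 8 groups of genotype, surgery and time (horizontal axis), with a point per array and bars for the mean and SD (n = 3). Asns is lowest in control sham liver at 28 d and highest in ligated JNK1Δhepa liver at 28 d. Hspa5 and Dnajb9 are lower at 28 d than at 48 h in ligated control and JNK1Δhepa liver. Without passing, the mean of Dnajb9 is also lower at 28 d in ligated JNK1-/- liver (9.87 against 10.52) and in sham liver (10.16 against 10.63).

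Ligation for 48 h in control mice changed 1 of the 9 members. Herpud1 fell, from 11.74, 11.97 and 12.08 on the sham arrays to 10.83, 11.43 and 11.64 on the ligated arrays. The groups did not overlap, and Herpud1 fell by 0.63 ± 0.19 (SE, n = 3 per group; adjusted p = 0.0407). Over all genes, 9.43% passed the test in this comparison, 5.61% rising and 3.83% falling. With every array brought to a median of 0, the median difference of all genes went from -0.03 to -0.20 and this split to 3.66% and 13.7%. The call was lost when any array but 1 was left out: adjusted p was 0.215 without ligated replicate 1, 0.0644 without ligated replicate 2, and 0.051, 0.106 and 0.148 without sham replicates 1, 2 and 3. It was also lost with quantile normalization (0.0657) and with the model fitted to these 6 arrays alone (0.0685). With the 28 d sham arrays in place of the 48 h ones, Herpud1 differed by -0.11 (adjusted p = 0.794).

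The transcription factors lay slightly higher without passing the test. Atf4 held 7.29, 7.49 and 7.56 in sham liver and 7.52, 7.94 and 8.11 in ligated liver, a difference of 0.41 ± 0.18 (adjusted p = 0.182). The highest sham array just exceeded the lowest ligated array. Xbp1 held 11.59, 11.43 and 11.33 in sham liver and 11.75, 11.65 and 12.10 in ligated liver, with no overlap and a difference of 0.38 ± 0.17 (adjusted p = 0.187). Their targets differed more between arrays. Trib3 held 5.60, 6.01 and 6.79 after ligation against 5.41, 5.56 and 5.48 in sham liver, and Fgf21 held 5.02, 5.95 and 7.03 against 5.04, 5.38 and 5.20. Ligated replicate 1 was the lowest array of its group for both genes and replicate 3 the highest. Without ligated replicate 1 both passed, Trib3 at 0.92 (adjusted p = 0.0387) and Fgf21 at 1.29 (adjusted p = 0.0139). Chac1 followed the same order, with 6.17, 6.79 and 8.34 after ligation against 6.82, 7.11 and 6.74, and did not pass.

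The same 3 arrays differed in neutrophil markers. The summed level of that list, given as the mean log2 intensity of the 5 of 6 markers measured, was 4.96, 5.54 and 6.49 on ligated replicates 1, 2 and 3, against 4.65 to 4.79 in sham liver. In order it runs with Chac1, Trib3 and Fgf21 on these arrays, but also with Atf4, Asns, Herpud1 and Dnajb9. Only Hspa5 and Xbp1 had another order. The part of the neutrophil list in these values was not tested. At 48 h, 3 of the 5 neutrophil, 2 of 5 cholangiocyte, 1 of 7 macrophage and 1 of 4 plasma cell markers rose, none fell, and none of 7 hepatocyte, 7 stellate, 5 endothelial or 5 lymphocyte markers passed the test. Of all genes 5.61% rose and 3.83% fell.

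Hspa5, Dnajb9 and Asns did not pass at 48 h. Hspa5 held 11.90, 11.83 and 12.24 in sham liver and 12.13, 12.40 and 12.19 in ligated liver, overlapping groups with a difference of 0.25 (95% interval -0.18 to 0.67). Asns held 8.92, 8.25 and 8.12 in sham liver and 7.80, 8.38 and 8.88 after ligation, again overlapping. This result depended on which sham arrays were used: against the 28 d sham arrays Asns was 1.24 higher (adjusted p = 0.0496), Fgf21 1.27 higher (adjusted p = 0.0215) and Dnajb9 0.71 higher (adjusted p = 0.0394).

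After 28 d of ligation in control mice, Asns rose. Sham arrays held 6.34, 8.04 and 6.97, and ligated arrays 9.17, 9.32 and 8.56. All 3 ligated arrays lay above all 3 sham arrays, although the sham arrays themselves spread over more than a log2 unit. The difference was 1.90 ± 0.40 (SE, n = 3 per group), or 3.73-fold, with adjusted p = 0.00169. Leaving out any 1 array gave 1.51 to 2.36 (adjusted p 0.000361 to 0.0157). It was the single call among the 9 members, in a comparison where 23.2% of all genes passed, 11.7% rising and 11.5% falling. With each array centred on its median the split was 6.44% and 30.3%, the median of all genes -0.23 and the difference in Asns 1.70 (adjusted p = 0.00329).

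The ER chaperone and its neighbours did not pass at 28 d. Hspa5 held 11.51, 12.57 and 11.66 in sham liver and 11.06, 11.69 and 11.57 after ligation. Sham replicate 2 stood nearly a log2 unit above the other sham arrays, and the groups overlapped. Hspa5 differed by -0.47 (95% interval -0.90 to -0.05; adjusted p = 0.104), by -0.67 with each array centred on its median (adjusted p = 0.0119) and by -0.67 without sham replicate 1 (adjusted p = 0.0309). Leaving out any 1 array moved the Hspa5 difference between -0.67 and -0.14 (adjusted p 0.0309 to 0.59), and it was smallest without sham replicate 2. Trib3 held 5.36, 6.00 and 5.38 in sham liver and 6.55, 6.08 and 6.05 after ligation. Its groups did not overlap, and the difference of 0.64 passed only without sham replicate 2 (adjusted p 0.081 with all arrays, 0.0379 without it). Herpud1, Xbp1, Atf4, Chac1, Fgf21 and Dnajb9 all differed by less than 0.35 in size, with overlapping arrays.

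**Figure D3:**
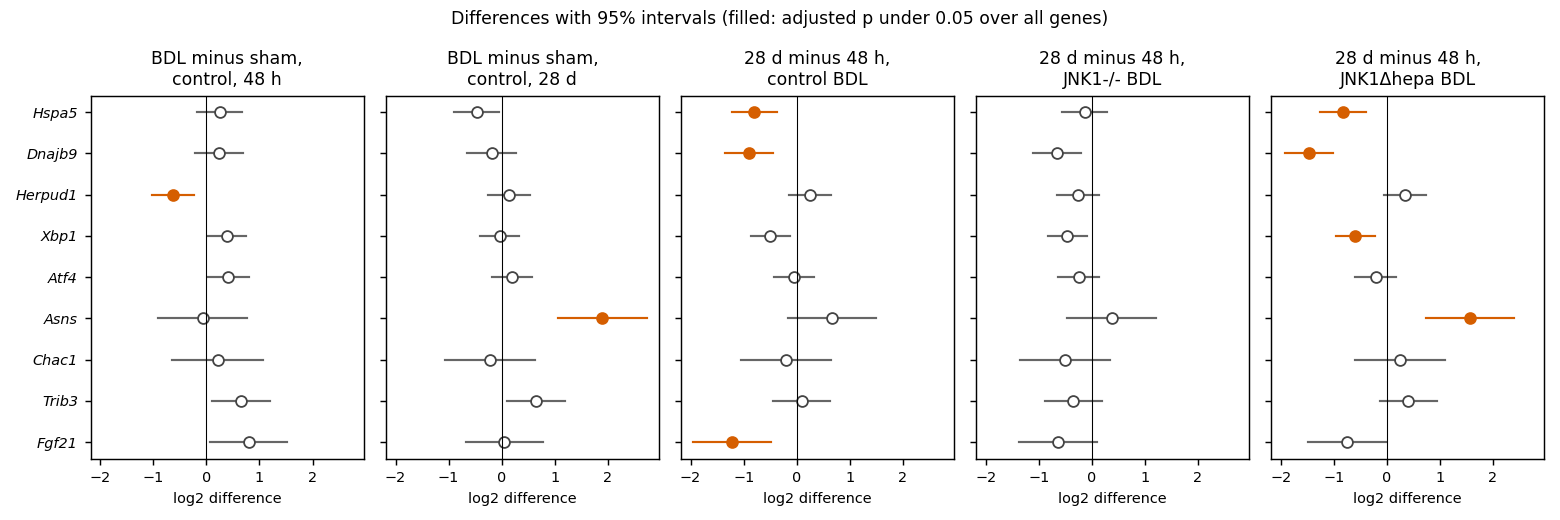
Log2 differences of the 9 measured members (horizontal axis, with 95% intervals) for ligation against sham in controls at both times and for 28 d against 48 h in ligated livers of each genotype; filled points passed the test at adjusted p under 0.05. Asns stands apart at 1.90 after 28 d of ligation, and no point is filled in the JNK1-/- panel.

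An interaction term compared the ligation effect at 28 d with that at 48 h, and no member passed (1.3% of all genes did; limma, 3 members at unadjusted p under 0.05). For Asns the effect at 28 d exceeded that at 48 h by 1.97 ± 0.57 (adjusted p = 0.0972). It passed without ligated 28 d replicate 3 (adjusted p = 0.0458) or sham 28 d replicate 2 (adjusted p = 0.035). Between the sham groups, 0.133% of all genes and none of the members passed (3 at unadjusted p under 0.05). Sham liver at 28 d held Asns at -1.31 relative to 48 h (adjusted p = 0.339), Herpud1 at -0.52, Fgf21 at -0.48 and Dnajb9 at -0.47. The ligated 28 d mean of Asns, 9.02, thus stood beside sham means of 7.12 at 28 d and 8.43 at 48 h.

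Ligated livers were next compared between 28 d and 48 h within each genotype. In controls, a comparison added after the data had been seen, Hspa5, Dnajb9 and Fgf21 fell, 3 of 9 members against 5.31% of all genes falling, 5.11% rising and 10.4% in all (8.84% and 3.09% with arrays centred on their medians). Hspa5 went from 12.13, 12.40 and 12.19 to 11.06, 11.69 and 11.57 with no overlap, and fell by 0.80 ± 0.20 (adjusted p = 0.0176). Dnajb9 went from 10.50, 10.89 and 11.22 to 9.74, 10.28 and 9.90 with no overlap, and fell by 0.90 ± 0.22 (adjusted p = 0.014). Fgf21 fell by 1.22 ± 0.35 (adjusted p = 0.0312) with overlapping groups, as 48 h replicate 1, at 5.02, lay below 28 d replicate 1, at 5.12. It averaged 5.27 over all arrays, the 44.5th percentile of genes. Its sham arrays also differed by -0.48 between these times, without overlap (limma, adjusted p = 0.847), and its ligation by time term was -0.74 (adjusted p = 0.511). The 3 calls in ligated controls leaned on single arrays. Hspa5 was lost without 28 d replicate 1 (adjusted p = 0.0959) or 48 h replicate 2 (0.0703), and Dnajb9 without 28 d replicate 1 (0.0649) or 48 h replicate 3 (0.0694). Fgf21 was lost without 28 d replicate 2 (0.0575) or 3 (0.0769), or 48 h replicate 2 (0.0736) or 3 (0.166), and none passed when the model was fitted to these 6 arrays alone (adjusted p 0.133, 0.151 and 0.29). Xbp1 differed by -0.50 (adjusted p = 0.0746) and passed with centred arrays (0.0335) or without 28 d replicate 3 (0.0439).

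In JNK1Δhepa liver 4 of 9 members passed, against 18% of all genes, 9.3% rising and 8.67% falling. Dnajb9 went from 11.13, 11.32 and 10.88 to 9.51, 9.75 and 9.67. Every 28 d array lay more than a log2 unit below every 48 h array, and Dnajb9 fell by 1.47 ± 0.22 (adjusted p = 0.000249), between -1.58 and -1.36 with any 1 array left out. Hspa5 went from 12.23, 12.26 and 12.08 to 11.43, 11.36 and 11.29, also without overlap, and fell by 0.83 ± 0.20 (adjusted p = 0.00781). Xbp1 went from 11.95, 11.87 and 11.39 to 11.23, 11.08 and 11.12 and fell by 0.59 ± 0.17 (adjusted p = 0.0221). Xbp1 did not pass without 28 d replicate 2 (adjusted p = 0.0676) or 3 (0.0585), or 48 h replicate 1 (0.111) or 2 (0.0876). Asns moved the other way, from 7.80, 8.79 and 8.31 to 10.41, 9.62 and 9.55, and rose by 1.56 ± 0.40 (adjusted p = 0.0101). Without 28 d replicate 1, the array with Mapk8 at the control level, Asns was 1.29 higher (adjusted p = 0.0677), and without 48 h replicate 1 it was 1.31 higher (adjusted p = 0.0604).

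In JNK1-/- liver no member passed (2.84% of all genes did; limma, 2 members at unadjusted p under 0.05). Hspa5 held 11.70, 12.02 and 12.04 at 48 h and 11.75, 11.75 and 11.87 at 28 d. Dnajb9 held 10.11, 10.82 and 10.64 at 48 h and 9.71, 9.91 and 9.99 at 28 d, without overlap, a difference of -0.66 (adjusted p = 0.113). It passed with arrays centred on their medians (adjusted p = 0.0448) and without 48 h replicate 1 (0.0428). The difference in time course between the 2 mutants, a further comparison added after the data had been seen, passed for none of the members (2.43% of all genes did; 4 members at unadjusted p under 0.05). JNK1-/- minus JNK1Δhepa was 0.81 for Dnajb9 (adjusted p = 0.147), 0.70 for Hspa5 (adjusted p = 0.182) and -1.19 for Asns (adjusted p = 0.25). Fitted to those 12 arrays alone, Hspa5 passed (adjusted p = 0.0265).

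The effect of each JNK1 deletion was taken against ligated control liver at the same time. No member passed for JNK1-/- at 48 h (2.3% of all genes did) or 28 d (0.627%), nor for JNK1Δhepa at 48 h (0%) or 28 d (0.228%). By limma at unadjusted p under 0.05, 0 members stood out in the first 3 of these and 1 in the last, Asns. In JNK1Δhepa liver at 28 d Asns held 10.41, 9.62 and 9.55, all above the control values of 9.17, 9.32 and 8.56, a difference of 0.84 (95% interval 0.01 to 1.68; adjusted p = 0.331). In JNK1-/- liver at 28 d it held 9.89, 9.49 and 8.88, overlapping controls, a difference of 0.41 (interval -0.43 to 1.24). Both intervals reach past a 2-fold difference.

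Chac1 showed the largest difference among members at 48 h. JNK1-/- arrays held 8.58, 7.75 and 7.34 and ligated control arrays 6.17, 6.79 and 8.34, a difference of 0.79 (interval -0.06 to 1.64; adjusted p = 0.369). Control replicate 3 alone lay among the mutant arrays, and without it the difference was 1.41 and passed (adjusted p = 0.039). The neutrophil list, at 6.49 on that control array, held 6.01, 5.69 and 5.43 on the JNK1-/- arrays and a mean of 4.97 on the JNK1Δhepa arrays. Its part in the Chac1 values was not tested. For Hspa5 the 48 h difference was -0.32 (interval -0.74 to 0.11) in JNK1-/- and -0.05 (interval -0.47 to 0.38) in JNK1Δhepa liver. No member passed the interaction of either deletion with time, which passed for 0.744% of all genes in JNK1-/- and 0% in JNK1Δhepa (1 and 0 members at unadjusted p under 0.05).

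Set against each other, the mutants had no member that passed at 48 h (2.44% of all genes did; limma, 3 members at unadjusted p under 0.05) or at 28 d (0.962%; 2 members). At 48 h the arrays of Chac1, Trib3, Dnajb9 and Hspa5 did not overlap between the mutants, though none of these genes passed. The share of all genes without overlap was not counted. Chac1 was 1.03 higher in JNK1-/- (adjusted p = 0.206) and Trib3 0.76 higher (adjusted p = 0.136). Dnajb9 differed by -0.59 (adjusted p = 0.179) and Hspa5 by -0.27 (adjusted p = 0.594). At 28 d Hspa5 was 0.43 higher in JNK1-/- (interval 0.0031 to 0.85; adjusted p = 0.288) and Herpud1 differed by -0.43 (interval -0.82 to -0.03; adjusted p = 0.253).

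Ligated mutants were also set against control sham liver, a comparison in which genotype and surgery change together and which shares its sham arrays with the control ligation. At 28 d Asns rose by 2.30 in JNK1-/- (adjusted p = 0.000561; 12.8% of all genes passed) and by 2.74 in JNK1Δhepa (adjusted p = 6.65e-05; 21.4%), beside 1.90 in controls. No other member passed, and Hspa5 differed by -0.55 in JNK1Δhepa (adjusted p = 0.0602) and -0.12 in JNK1-/-. Without sham replicate 1, Hspa5 and Dnajb9 passed in JNK1Δhepa (adjusted p = 0.0184 and 0.0371), as did Hspa5 without sham replicate 3 (0.0466). With any 1 array left out, Hspa5 there ran from -0.75 to -0.22 (adjusted p 0.0184 to 0.399). Dnajb9 ran from -0.72 to -0.37 (adjusted p 0.0371 to 0.34). At 48 h Trib3 rose by 0.91 in JNK1-/- (adjusted p = 0.0263; 11.9% of all genes passed), from 5.41, 5.56 and 5.48 to 6.08, 6.82 and 6.29. It did not pass without JNK1-/- replicate 2 (adjusted p = 0.148) or sham replicates 1 (0.085), 2 (0.0584) or 3 (0.0665), nor with quantile normalization (0.0533). In JNK1Δhepa at 48 h no member passed (8.08% of all genes did; limma, 3 members at unadjusted p under 0.05). With the 28 d sham arrays in place of those at 48 h, Dnajb9 in JNK1Δhepa went from 0.48 to 0.95 higher (adjusted p = 0.00797) and Asns in JNK1-/- from 0.62 to 1.93 higher (adjusted p = 0.00253).

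The wider pathway was read through 6 lists of genes other than the members. At 48 h of ligation, ATF4 target genes rose more often than they fell, 7 and 1 of 23 measured, with a median difference of 0.25 against -0.03 over all genes. Of all genes 5.61% rose and 3.83% fell. Psat1, an enzyme of serine synthesis, rose by 1.86 (adjusted p = 0.000371) and Nupr1, a small stress-induced chromatin protein, by 2.08 (adjusted p = 0.00181). Slc38a2, an amino acid transporter, fell by 0.66 (adjusted p = 0.0311), a call lost without any 1 of ligated replicates 1 and 2 or of the 3 sham arrays. Without ligated replicate 3, 4 ATF4 targets rose. Among 8 stress transcription factors, 3 rose, with Atf3 3.53 higher and Jun 2.43 higher (adjusted p = 0.000251 and 3.19e-05), and Creb3l3 fell by 0.37 (adjusted p = 0.0127). That fall did not pass without ligated replicate 1 (0.0614) or 2 (0.0579) or sham replicate 3 (0.0665). Tnfrsf10b, a death receptor induced by CHOP, rose by 1.97 (adjusted p = 0.00012), 1 of 8 in the list of feedback and death genes. None of 16 ER chaperones and folding enzymes and none of 13 ER-associated degradation genes passed (limma, 1 and 0 at unadjusted p under 0.05), with medians of 0.10 and 0.05. Of 6 stress sensors, Eif2ak4 (GCN2) rose by 0.34 and Eif2ak1 (HRI) fell by 0.39, of which the first was lost without ligated replicate 1 or 2 or sham replicate 1 or 3 and with centred arrays, and the second without ligated replicate 2 or 3 or sham replicate 1 or 2. Against the 28 d sham arrays, Creb3l3, Slc38a2 and Eif2ak1 no longer passed (adjusted p = 0.252, 0.163 and 0.0672). Those arrays added 4 rises, of Eif2ak3 (PERK) by 0.73, Creb3l2 by 0.67, Sqstm1 by 0.44 and the ER oxidase Ero1a by 0.77 (adjusted p = 0.0236, 0.0232, 0.0308 and 0.0401). With centred arrays the degradation gene Os9 fell by 0.35 (adjusted p = 0.0446). The last 5 genes were named after their values were seen.

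At 28 d the folding machinery was lower. Of 16 chaperones and folding enzymes 10 fell and 0 rose, with a median difference of -0.53 against -0.03 over all genes, of which 11.5% fell. Ero1b, an ER oxidase, fell by 1.14 (adjusted p = 0.0032) and Canx, the lectin chaperone calnexin, by 0.47 (adjusted p = 0.00464). Of 13 degradation genes 7 fell, with a median of -0.38, among them Derl2, a channel component, by 0.71 (adjusted p = 0.000198) and Sel1l, its ligase adaptor, by 0.70 (adjusted p = 0.00103). Single arrays moved these counts. The mean of the chaperone list was 10.86 on sham replicate 2, the highest of 24 arrays, and 9.27 on ligated replicate 1, the lowest. Without sham replicate 2, 4 chaperones and 2 degradation genes fell, and without ligated replicate 1, 4 and 4; without sham replicate 3, 4 degradation genes fell. With quantile normalization 6 and 4 fell. Hspa5, given above, had its highest and lowest 28 d control values on the same 2 arrays.

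Of 23 ATF4 targets at 28 d, 6 rose and 2 fell, with a median of 0.29 against -0.03 over all genes. Over all genes 11.7% rose and 11.5% fell, shares to be set beside every count in this paragraph. Ddit4, an inhibitor of mTORC1, rose by 2.89 (adjusted p = 0.00203) and Eif4ebp1, a translation repressor, by 0.44 (adjusted p = 0.00421), while Shmt2 fell by 0.56 and Cars by 0.42 (adjusted p = 0.047 and 0.0486). Without sham replicate 1 or 2, 3 rose, with centred arrays 2 rose, and neither Shmt2 nor Cars passed without ligated replicate 1 or 3 or any 1 sham array. Of 8 feedback and death genes 4 rose, with Bcl2l11 (the death protein BIM) 1.70 higher and Tnfrsf10b 1.69 higher. Without sham replicate 1 or 3, 2 rose. Ern1, the sensor IRE1, fell by 0.65 (adjusted p = 0.00649), and Atf3 was 2.16 higher. At 28 d, 4 of 7 macrophage, 3 of 5 neutrophil, 1 of 5 cholangiocyte, 1 of 7 stellate and 1 of 5 lymphocyte markers rose, and 1 of 7 hepatocyte, 2 of 5 endothelial and 1 of 5 lymphocyte markers fell. Of 4 markers of plasma cells, a cell type rich in ER, 2 rose. Their mean was 6.42 to 6.73 on ligated arrays and 5.82 to 5.94 on sham arrays, a direction opposite to the chaperone list, and its part in the result was not tested.

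**Figure D4:**
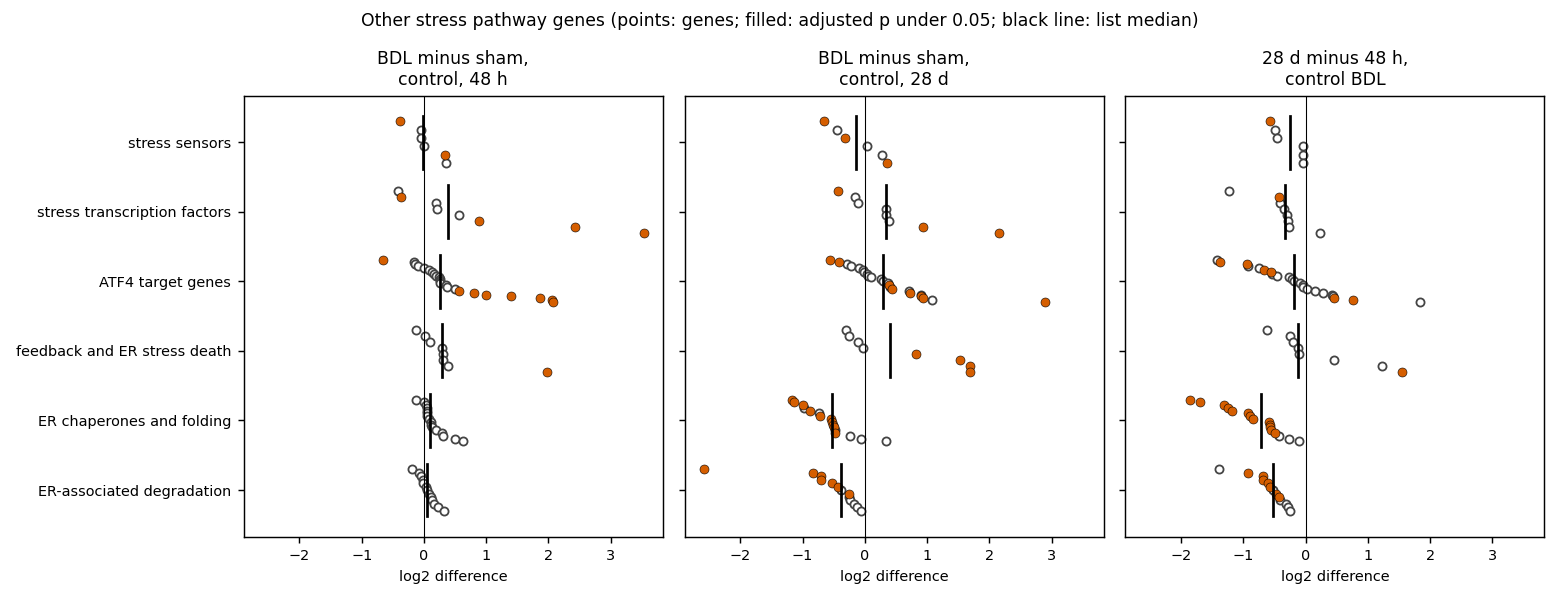
Log2 differences of single genes (points) in the 6 pathway lists (vertical axis) for ligation against sham in controls at 48 h and 28 d and for 28 d against 48 h in ligated controls, with a black line at each list's median; filled points passed the test. After 28 d of ligation the chaperone and degradation lists lie below 0, with medians of -0.53 and -0.38, whereas at 48 h they lie at 0.10 and 0.05.

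By interaction, none of the chaperone or degradation genes passed, and 1.3% of all genes did (limma, 11 chaperone and 7 degradation genes at unadjusted p under 0.05). The effect of ligation at 28 d was below that at 48 h for 16 of 16 chaperones and 13 of 13 degradation genes. Their medians were -0.70 and -0.49, against 0.0002 over all genes. The genes share the same arrays, so such counts of direction are not independent observations. Between the sham groups no gene of any list passed, where only 0.133% of all genes did (limma, 2 stress factors and 1 degradation gene at unadjusted p under 0.05). Within ligated controls, 13 of 16 chaperones and 7 of 13 degradation genes were lower at 28 d than at 48 h. Of all genes 5.31% fell and 5.11% rose. Sdf2l1, a chaperone cofactor, fell by 1.86 (adjusted p = 0.00316). The chaperone count was 2 without 28 d replicate 1, 4 without 48 h replicate 2 and 7 without 48 h replicate 3, and the degradation count was 3 without 28 d replicate 1 and 4, 2 and 3 without 48 h replicates 1, 2 and 3. Plasma cell markers were higher at 28 d, at 6.42 to 6.73 against 5.82 to 6.00, with 1 of 4 rising; the other 7 marker lists overlapped, and the part of the markers in the result was not tested.

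Within ligated JNK1Δhepa liver 14 of 16 chaperones fell between 48 h and 28 d, with a median of -0.81. Of all genes 8.67% fell and 9.3% rose. Sdf2l1 fell by 2.02 and Pdia6, a disulfide isomerase, by 1.22 (adjusted p = 0.000816 and 0.000738). The sensors Ern1 and Eif2ak3 fell by 0.94 and 0.96 (adjusted p = 0.000776 and 0.00303). ATF4 targets did not follow, 4 rising and 5 falling of 23, while Ddit4 rose by 2.45 and Wars fell by 0.81. Without 28 d replicate 1 they split 1 and 3, without 48 h replicate 1, 2 rose, and without 48 h replicate 2, 2 fell. Of the degradation genes 7 fell, among them Edem1 by 0.66; the count was 3, 4 and 3 without 28 d replicates 1, 2 and 3, and 3 and 2 without 48 h replicates 1 and 2. Of 8 feedback and death genes 1 rose and 2 fell. Bcl2l11 rose by 2.64 (adjusted p = 0.000551), while Tnfrsf10b fell by 0.86 and Wfs1 by 0.69 (adjusted p = 0.0261 and 0.0279). With any 1 array left out, 0 or 1 of them fell. Marker levels moved between the same groups: the mean of the stellate list lay between 7.29 and 7.44 at 48 h and between 6.38 and 6.94 at 28 d. For endothelial markers these ranges were 8.22 to 8.46 and 7.83 to 7.96, and for macrophage markers 9.38 to 9.46 and 8.85 to 9.25. Of these, 0 of 7, 2 of 5 and 1 of 7 genes fell, and the other 5 marker lists overlapped. Their part in the result was not tested.

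In ligated JNK1-/- liver 0 of 16 chaperones and 0 of 13 degradation genes passed between the times (limma, 1 and 3 at unadjusted p under 0.05), with medians of -0.20 and -0.19. Of all genes only 2.84% passed in this comparison, against 18% in JNK1Δhepa liver. Neutrophil markers were lower at 28 d (4.71 to 4.97 against 5.43 to 6.01) and so, by less, were hepatocyte markers (12.81 to 12.86 against 12.89 to 12.92); plasma cell markers were higher (6.18 to 6.66 against 5.80 to 5.97), and the other 5 marker lists overlapped. Their part in the result was not tested. The chaperone means were 10.22, 10.33 and 10.40 at 48 h and 10.00, 10.07 and 10.28 at 28 d. The matching JNK1Δhepa means were 10.68, 10.66 and 10.47 at 48 h and 9.64, 9.69 and 9.66 at 28 d. The difference in time course between the mutants passed for none of the chaperones and for 2.43% of all genes (limma, 11 chaperones at unadjusted p under 0.05). It was above 0 for 16 of 16, which share the same arrays, with a median of 0.59 against -0.03 over all genes. Psat1 fell by 1.28 (adjusted p = 0.0185) and Creb3l3, a hepatocyte ER-bound transcription factor, by 0.62 (adjusted p = 0.000662) in JNK1-/- liver. Against ligated controls, Creb3l3 was 0.43 higher in JNK1-/- liver at 48 h (adjusted p = 0.0145). At 28 d Derl2 was 0.56 higher (adjusted p = 0.0281). Without passing, 15 of 16 chaperones lay above control on these shared arrays, with a median of 0.37 against -0.01 over all genes. No list gene passed for JNK1Δhepa against control at 48 h, where 0% of all genes passed, or at 28 d, where 0.228% did. By limma at unadjusted p under 0.05 there were 4 ATF4 targets at 48 h. At 28 d there were 2 sensors, 3 transcription factors, 2 ATF4 targets, 1 degradation gene and 2 feedback genes.

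Several chaperone genes carry the element shown for Hspa5. It occurred in 7 of 15 chaperone promoters found and in 2 of 12 degradation promoters, against 0.113% of all promoters, while the ATF4 core occurred in 4 of 19 ATF4 target promoters. The matches of the genes named in this account are shown, on the strand of the gene, to set them beside that of Hspa5; a match on the opposite strand begins with CGTGG, and of the 2 matches of Hsp90b1 the one nearer the start is shown.
Creld2: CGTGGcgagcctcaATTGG
Hsp90b1: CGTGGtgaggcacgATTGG
Canx: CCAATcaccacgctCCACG
Pdia6: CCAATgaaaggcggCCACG
Ero1b: CGTGGtcccgcctcATTGG

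The genes most like each member over the 24 arrays were ranked by Pearson correlation of log2 values, a description in which all points share arrays and the largest r was kept. Closest to Hspa5 were Creld2, an ER protein induced by stress (r = 0.977), Hyou1, an ER chaperone (0.957), and Hsp90b1, which encodes GRP94 (0.951). All 3 are themselves in the chaperone list. With group means removed the same genes led at 0.958, 0.943 and 0.917, so arrays of 1 group also differed together. Dnajb9 ran closest to Tmem39a (0.934) and, within groups, to Bhlha15 and Eif2ak3 (both 0.911). Xbp1 ran closest to Tmem167 (0.937). Asns had a less close neighbour, Tmem62 at 0.850. Trib3 and Fgf21 ran closest to genes of immune cells, Clec4d, a myeloid lectin, at 0.878, and Il23a, a cytokine subunit, at 0.857. With group means removed, Fgf21 again ran closest to Il23a (0.884), but Trib3 to Dync1li1 (0.884). Chac1 ran closest to Alkbh5 (0.736) over the arrays and, within groups, to the neutrophil collagenase Mmp8 (0.924) and to Clec4e (0.906). Atf4 reached 0.805 with Ankhd1 and Herpud1 0.772 with Gin1.

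**Figure D5:**
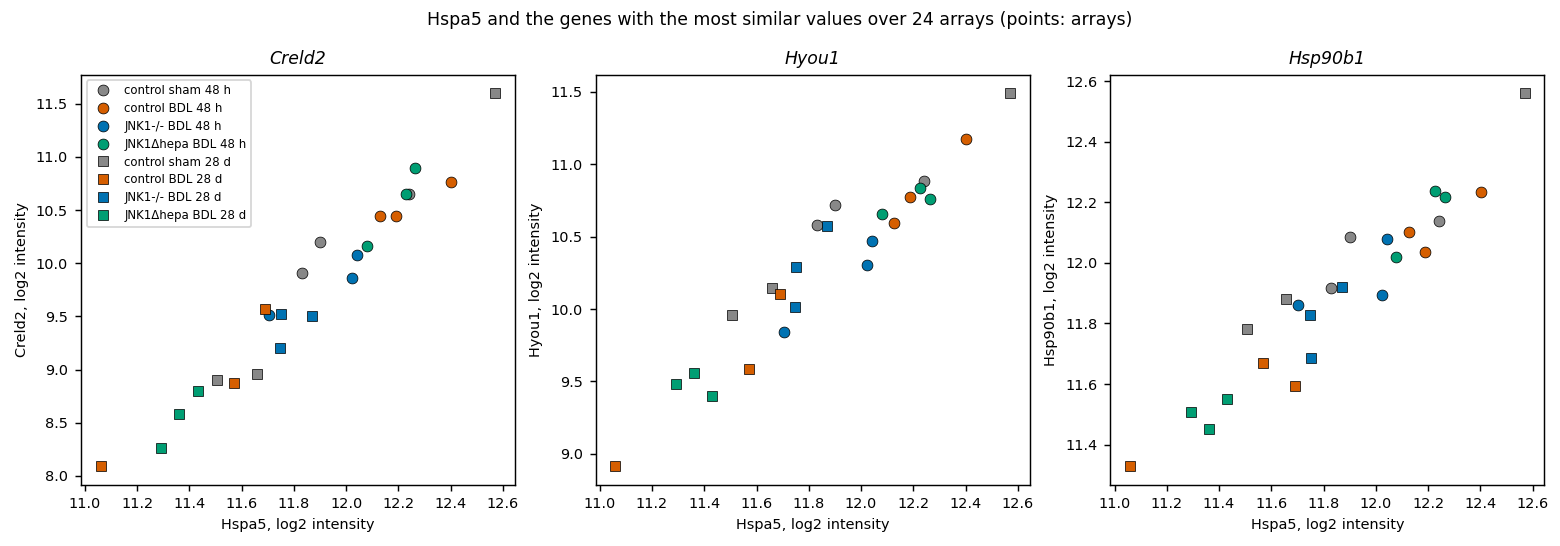
Log2 intensity of Hspa5 (horizontal axis) against Creld2, Hyou1 and Hsp90b1 (vertical axes) on the 24 arrays, coloured by group, with circles for 48 h and squares for 28 d. The points follow a line in each panel, with r = 0.977, 0.957 and 0.951.

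Among the members themselves, the arms of the response did not separate cleanly. Over 24 arrays r was 0.81 for Hspa5 with Dnajb9, 0.78 for Xbp1 with Dnajb9 and 0.76 for Hspa5 with Xbp1, but -0.31 for Hspa5 with Asns. Herpud1 did not follow the other ER genes, at -0.21 with Hspa5, -0.21 with Xbp1 and -0.07 with Dnajb9. Over the arrays Fgf21 held 0.70 with Dnajb9, 0.63 with Xbp1 and 0.47 with Hspa5. Within groups r was 0.80 for Trib3 with Fgf21, 0.71 for Atf4 with Trib3 and 0.70 for Atf4 with Herpud1. There Hspa5, Xbp1 and Dnajb9 held 0.57 to 0.63 with each other, and Atf4 held -0.05 with Hspa5 and 0.05 with Xbp1. Trib3, however, held 0.50 with Xbp1 and 0.54 with Dnajb9. Within groups Fgf21 held 0.58 with Dnajb9 but 0.20 with Xbp1 and 0.02 with Hspa5, and Hspa5 held 0.38 with Asns.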

How the data were processed

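The values are log2 intensities that the authors deposited after RMA normalization, per the submitters' processing notes; its version is not given in the sources used here. Liver RNA was measured on 24 biotin-labelled arrays. Of 35556 probe sets, 21218 carried 1 gene symbol, 1881 several and 12457 none. Those with 1 symbol gave 18820 genes, and 21185 of them matched the RefSeq table by gene number. Correlations between arrays were 0.956 to 0.993, and no pair was identical.

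Linear models were fitted in R 4.3.3 with limma 3.58.1 (tables read with data.table, version 1.17.8), with 8 group means over 24 arrays, 16 residual degrees of freedom and 3.55 prior degrees of freedom. P-values were adjusted by Benjamini and Hochberg over all genes of a comparison, and a gene passed, rose or fell at an adjusted p under 0.05. The scripts were tested on simulated data. The members, lists and alternatives were chosen with earlier results of these data known. Besides all members, up to 2 genes per pathway list and direction with the smallest p among those that passed were named, and the 3 genes most like a member, leaving out predicted genes. Groups come from the array labels.

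Deviations of arrays with the same replicate number were correlated: all 3 pairs passed 0.1 in 1 of 16 comparisons, JNK1Δhepa against control at 28 d (0.50, 0.24 and 0.16). Nothing in the labels says what a number marks, and a block for it changed no call among the members there. Alternatives were quantile normalization, centring, a filter on low values, the replicate block, another variance model, another probe set rule, smaller fits, exchanged sham arrays and single arrays left out.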

Additional observations from a re-analysis of the deposited data

How the results depend on the processing

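Of 143 counts of members that passed under an alternative other than leaving out an array, 124 were within 1.5 times the count given. For ligation at 48 h the count of 1 became 0 with quantile normalization, with the replicate block and with only the arrays compared, and 3 with 28 d sham arrays. Centring each array gave 2 for ligation at 28 d, 1 for JNK1-/- ligated at 28 d against 48 h and 2 for JNK1Δhepa at 28 d against sham; leaving out the lowest 25% of genes by mean also gave 2 for the last. The replicate block gave 1 for JNK1-/- against JNK1Δhepa at 48 h, 1 for their difference in time course, 1 for JNK1-/- at 28 d against 48 h, 3 for JNK1Δhepa at 28 d against sham and 1 for JNK1Δhepa at 48 h against sham. Dnajb9 passed in all 5 (adjusted p = 0.0388, 0.0376, 0.0216, 0.0151 and 0.0486) and Hspa5 in the 28 d comparison with sham (0.0416). Only the arrays compared gave 0 for control at 28 d against 48 h, 1 for the mutants' difference in time course and 1 for JNK1Δhepa at 48 h against sham. For JNK1-/- at 48 h against sham quantile normalization gave 0 and 28 d sham arrays 2; those sham arrays gave 1 for JNK1Δhepa at 48 h. With single arrays left out the counts ran from 0 to 2 for ligation at 48 h, 1 to 2 at 28 d, 0 to 1 for ligation by time, JNK1-/- against control at 48 h, JNK1-/- at 28 d against 48 h and JNK1-/- at 48 h against sham, 2 to 4 for JNK1Δhepa at 28 d against 48 h, 1 to 3 for JNK1Δhepa at 28 d against sham and for control at 28 d against 48 h, and 1 to 1 for JNK1-/- at 28 d against sham; they stayed at 0 elsewhere. Of 2583 single differences, 2521 kept their side of the threshold, of which 2384 kept their sign and 137, passing in neither analysis, changed it. A further 31 no longer passed, 30 newly passed with the same sign, and Asns for ligation at 48 h turned from -0.07 to 1.24 with 28 d sham arrays and passed. The causes were not tested. With 3 arrays a group, precision is low for the most variable members: Chac1 had a standard error of 0.41, and a 2.48-fold difference of Asns between the sham groups did not pass (adjusted p = 0.339).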

Other observations

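The sham livers at 28 d were unequal in their ER chaperones. Creld2, the gene closest to Hspa5, held 11.60 on sham replicate 2 against 8.90 and 8.96 on replicates 1 and 3, and Hspa5 itself held 12.57 against 11.51 and 11.66. Asns was also highest on that array, at 8.04 against 6.34 and 6.97. The labels give no difference in treatment between these 3 arrays.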
